A study of Marchantia polymorpha and Arabidopsis thaliana and Oryza sativa Japonica Group with 116 samples.

Results

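A set of 150 loci of the liverwort Marchantia polymorpha, whose messenger RNA level at 24 h of salt treatment stood above that at 0 h and 2 h in the wild type, was described in the wild type and in 3 G-protein mutants. The loci were selected on the wild-type libraries themselves. Each locus was scored by the smaller of 2 log2 ratios of mean CPM (counts scaled to the library total), 24 h over 0 h and 24 h over 2 h, with 1 CPM added to every mean, and the 150 highest scores were kept. The table held 16743 loci, of which 8325 could be ranked because they reached a mean of 5 CPM in at least 1 wild-type group and were not named as male-linked.

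High salt outside a plant cell lowers water uptake and loads the cell with sodium, and plants answer with an early wave of gene expression and a later one that is in place once the tissue has been exposed for a day. Heterotrimeric G proteins carry signals from the plasma membrane. They are built of a Gα subunit, which binds a guanine nucleotide, and a joined pair of Gβ and Gγ subunits, and land plants also have extra-large Gα-like proteins called XLGs. Marchantia grows as a flat haploid thallus, and its gemmalings are young plants that arise from asexual buds named gemmae.

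Transcript levels in gemmalings were measured by RNA sequencing, with 36 libraries in 12 groups of 3. The groups were the wild type Tak-1 and the mutants gpa1-2, gpb1-2 and xlg1-2, named for the Gα, Gβ and XLG subunits, each at 0, 2 and 24 h of 100 mM NaCl. All plants were 7 days old and had been grown in diluted liquid B5 medium under continuous light. Each mutant was 1 named allele, and no group was handled for 24 h without salt, so salt, time in the experiment and handling cannot be told apart. The table pairs no identifier with a gene name, and 0 of the 150 identifiers were found in the gene table of the MpTak2_v7.1 assembly, so loci are given by identifier, without a function, and the mutated genes themselves were not checked here.

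Library totals ran from 7.476 to 21.27 M counts with a median of 10.525 M, and the deepest were the replicate 3 libraries of gpb1-2 and xlg1-2, at 19.02 M or more. Loci of a few CPM rest on few reads and carry larger counting error. The 87 male-linked identifiers summed to between 1035 and 1693 CPM in every library, as the male wild type Tak-1 should have. By expression over all loci, the nearest library had the same time in 36 of 36 cases and the same group in 24 of 36. For xlg1-2 replicate 1 the nearest library was one of gpb1-2 at all 3 times. In turn, gpb1-2 replicates 1 and 2 at 0 h and replicate 1 at 24 h were nearest to xlg1-2 replicate 1. All Tak-1 libraries at 0 h were also nearest to another genotype. Most counts and differences tested with xlg1-2 are given with and without the 3 libraries of xlg1-2 replicate 1. This alternative was chosen after the data were seen, and no gpb1-2 libraries were left out as a set. Counts of loci by their calls over all mutants together are given only with the 3 xlg1-2 libraries.

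In Tak-1 the 150 loci together made up 0.545% ± 0.0482 of all counts at 0 h, 0.630% ± 0.0867 at 2 h and 2.78% ± 0.334 at 24 h (SD, n = 3). The 3 Tak-1 libraries at 24 h held 3.083%, 2.836% and 2.422%, all above every Tak-1 library of the earlier times. The score ran from 1.43 to 5.17 with a median of 1.88, and the log2 ratio of 24 h over 0 h from 1.45 to 6.43. The last loci inside the limit, Mapoly0005s0028 and Mapoly0063s0020, had scores of 1.436 and 1.431, and the first outside had 1.428 and 1.428. These values chose the loci and are a description without a test. The whole-table comparisons in Tak-1 likewise called all 150 loci higher at 24 h than at 0 h and than at 2 h, beside 28.5% of the 10296 loci tested in the first comparison and 23% in the second. Loci called lower were 25.6% and 24.7% of all. At 2 h, 34 of the 150 were higher and 19 lower than at 0 h in Tak-1, beside 14.8% and 13.1% of all loci, and nothing is read from these counts because the same libraries made the choice.

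**Figure D1:**
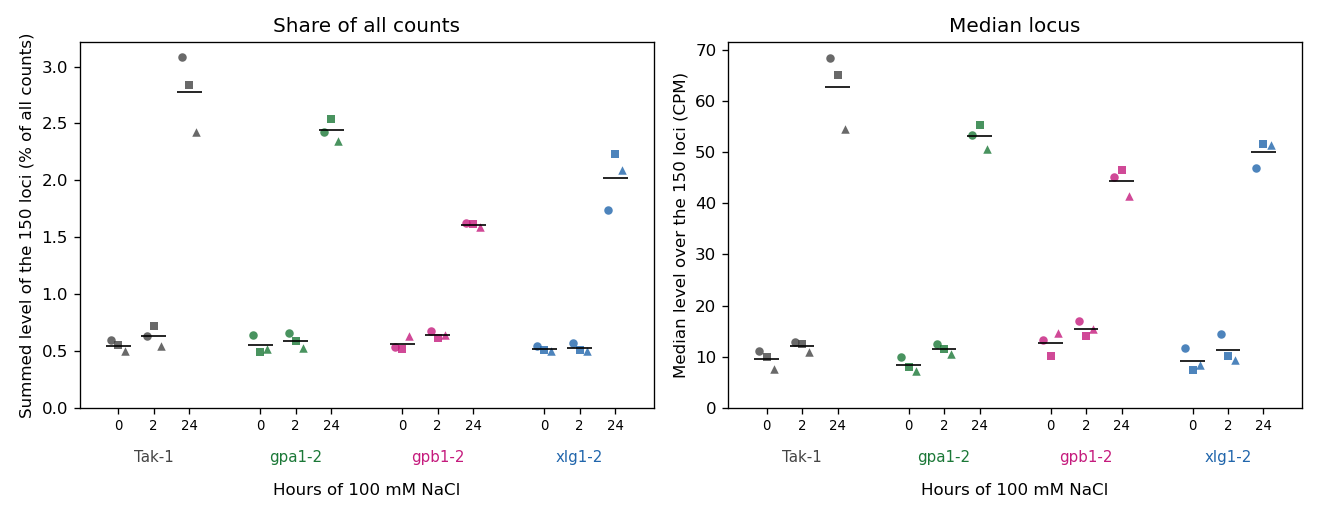
Summed level of the 150 loci as a percent of all counts (left) and median level over the loci in CPM (right), for each genotype at 0, 2 and 24 h of 100 mM NaCl. Each point is 1 library, with circles, squares and triangles for replicates 1, 2 and 3, and bars are means; at 24 h the summed share was 2.78% in Tak-1, 2.44% in gpa1-2, 1.61% in gpb1-2 and 2.02% in xlg1-2.

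Levels in Tak-1 at 24 h ran from 5.10 to 3096 CPM with a median of 63.0 CPM. The highest score belonged to Mapoly0092s0072, which had 0, 0.104 and 0 CPM at 0 h, 0, 0 and 0 CPM at 2 h and 37.7, 40.7 and 30.6 CPM at 24 h. This locus was close to absent before 24 h. Mapoly0027s0052 had 19.96, 11.9 and 4.64 CPM at 0 h, 7.77, 9.06 and 2.79 CPM at 2 h and 525, 488 and 264 CPM at 24 h. Its 24 h libraries lay far above the earlier ones but differed among themselves. The 2 most abundant loci at 24 h, Mapoly0008s0264 and Mapoly0008s0265, made up 18.9% of the summed level of the 150 in Tak-1, so the sum is led by a few loci and the median is given beside it.

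The 24 h rise was measured independently in the libraries of the mutants, which had no part in the choice of loci. Tak-1 levels set beside those of the mutants are a description, because Tak-1 values chose the loci. In gpa1-2 the 150 loci summed to 0.546% ± 0.0779 of counts at 0 h, 0.588% ± 0.0652 at 2 h and 2.44% ± 0.0981 at 24 h (SD, n = 3). Of the 150 loci, 148 were called higher at 24 h than at 0 h and 2 were not called, beside 25.4% of all loci tested called higher and 22.5% lower (edgeR's quasi-likelihood test, adjusted p under 0.05). The median log2 change was 2.34 over the 150 and 0.03 over all loci tested. Against 2 h, 149 were called higher, with a median of 2.39, beside 21% of all loci higher and 21% lower. The rise of the set in Tak-1 thus recurred in gpa1-2 for nearly every locus.

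Mapoly0049s0007 had 11.1, 10.2 and 10.4 CPM at 0 h, 11.4, 12.8 and 14.0 CPM at 2 h and 108, 98.4 and 100.2 CPM at 24 h in gpa1-2. The 24 h libraries lay far above all others, and the log2 rise over 0 h was 3.15 ± 0.146 (SE; edgeR adjusted p = 2.17e-15). Mapoly0022s0142 rose by 4.96 ± 0.255 on the log2 scale (SE; edgeR adjusted p = 1.19e-14), to 235, 257 and 247 CPM from 6.57, 7.73 and 7.51 CPM. Against 2 h, Mapoly0037s0115 was higher by 4.82 ± 0.242 (SE; edgeR adjusted p = 1.1e-14), with 23.5, 24.3 and 25.1 CPM at 2 h and 733, 718 and 726 CPM at 24 h. These 3 loci did not overlap between 24 h and the earlier time in gpa1-2.

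The 2 loci not called higher over 0 h in gpa1-2 were Mapoly0050s0125, with a log2 difference of 0.16 (edgeR adjusted p = 0.834), and Mapoly0007s0184, with 0.59 (edgeR adjusted p = 0.109). Both were singled out after their values were seen. Mapoly0050s0125 had 10.1, 8.24 and 8.98 CPM at 24 h in Tak-1, 1.17, 1.02 and 0.782 CPM in gpa1-2, 0.756, 0.525 and 0.631 CPM in gpb1-2 and 3.42, 5.62 and 5.76 CPM in xlg1-2. At that time every gpa1-2 and gpb1-2 library lay below every Tak-1 and xlg1-2 library.

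In xlg1-2 the loci summed to 0.517% ± 0.0203 of counts at 0 h, 0.525% ± 0.0369 at 2 h and 2.02% ± 0.256 at 24 h (SD, n = 3). At 24 h the libraries held 1.734%, 2.230% and 2.091%, and replicate 1, which was nearest to gpb1-2 over all loci, was the lowest. Of the 150 loci, 146 were called higher at 24 h than at 0 h, with a median log2 change of 2.04, beside 26% of all loci called higher and 23.7% lower. Against 2 h, 148 were called higher, with a median of 2.09, beside 20.7% higher and 21.1% lower of all loci. Without the 3 libraries of xlg1-2 replicate 1 the counts were 147 and 150 and the medians 2.21 and 2.37. Over all loci, 4370 and 3785 were then called in either direction. Mapoly0044s0075 rose by 2.74 ± 0.15 (SE; edgeR adjusted p = 1.1e-13) over 0 h. Mapoly0049s0007 rose by 2.38 ± 0.14 (SE; edgeR adjusted p = 2.92e-13), from 11.99, 8.74 and 14.6 CPM to 65.3, 68.4 and 75.5 CPM. Without those 3 libraries the rises were 2.65 and 2.40.

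In gpb1-2 the rise was present, with fewer loci called and a smaller median change than in gpa1-2 or xlg1-2. The loci summed to 0.560% ± 0.0610 of counts at 0 h, 0.642% ± 0.0299 at 2 h and 1.61% ± 0.0164 at 24 h (SD, n = 3). The median level over the loci was 12.6 ± 2.29 CPM at 0 h and 44.4 ± 2.61 CPM at 24 h (SD, n = 3). At the same times it was 8.31 ± 1.36 and 53.1 ± 2.34 CPM in gpa1-2, and 9.12 ± 2.23 and 50.1 ± 2.64 CPM in xlg1-2. The gpb1-2 median was thus the highest of the 3 mutants at 0 h and the lowest at 24 h. Of the 150 loci, 118 were called higher at 24 h than at 0 h, 5 were called lower and 27 were not called, beside 24.5% of all loci higher and 22.9% lower. The median log2 change was 1.57 over the 150 and 0.04 over all loci tested. Against 2 h, 112 were called higher and 3 lower, with a median of 1.35, beside 18.4% higher and 19.6% lower of all loci. In bulk tissue, fewer cells of a type and less RNA per cell cannot be told apart.

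Over 0 h, the smallest p in gpb1-2 belonged to Mapoly0044s0075 and Mapoly0067s0104. Mapoly0044s0075 had 17.5, 17.6 and 20.3 CPM at 0 h and 136, 123 and 134 CPM at 24 h in gpb1-2, a log2 rise of 2.70 ± 0.149 (SE; edgeR adjusted p = 6.32e-14). Over all 12 libraries of a time, whatever the genotype, it ran from 14.2 to 25.4 CPM at 0 h, 35.2 to 57.4 CPM at 2 h and 114 to 146 CPM at 24 h, so the times did not overlap. Mapoly0067s0104 ran from 4.14 to 7.57 CPM at 0 h, 9.45 to 18.6 CPM at 2 h and 34.8 to 60.9 CPM at 24 h over the same libraries, and rose by 2.69 ± 0.168 in gpb1-2 (SE; edgeR adjusted p = 5.97e-13). Against 2 h, the smallest p values in gpb1-2 belonged to Mapoly0037s0115, higher by 3.59 ± 0.227 (SE; edgeR adjusted p = 1.77e-12), and Mapoly0199s0004, higher by 1.77 ± 0.117 (SE; edgeR adjusted p = 3.19e-12). Mapoly0037s0115 was at 380.3, 455 and 425 CPM at 24 h in gpb1-2 and at 1017, 919 and 921 CPM in Tak-1. Every gpb1-2 library lay below every Tak-1 library of that time, but the Tak-1 values had a part in choosing this locus.

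Of the 5 loci called lower at 24 h than at 0 h in gpb1-2, the 2 with the smallest p were Mapoly0116s0046 and Mapoly0064s0003. Mapoly0116s0046 fell from 56.3, 90.3 and 74.2 CPM to 35.7, 33.5 and 25.4 CPM, a log2 change of -1.35 ± 0.255 (SE; edgeR adjusted p = 7.08e-05). In gpa1-2 the same locus had 83.4, 76.8 and 73.8 CPM at 0 h and 229.5, 276 and 258 CPM at 24 h, and at 24 h 191, 230.5 and 143 CPM in Tak-1 and 69.8, 154 and 112 CPM in xlg1-2. The 24 h level in gpb1-2 lay below every 24 h library of the other genotypes. Mapoly0064s0003 had 4, 6 and 18 counts at 0 h and 2, 0 and 3 counts at 24 h in gpb1-2, and its log2 change was -2.41 ± 0.659 (SE; edgeR adjusted p = 0.00334). In gpa1-2 it rose to 5.11, 8.91 and 6.64 CPM at 24 h. Against 2 h, Mapoly0006s0125 differed in gpb1-2 by a log2 change of -2.03 ± 0.618 (SE; edgeR adjusted p = 0.0101), a call that was lost without replicate 3 of gpb1-2 at 2 h (edgeR adjusted p = 0.175) or at 24 h (edgeR adjusted p = 0.0781).

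**Figure D2:**
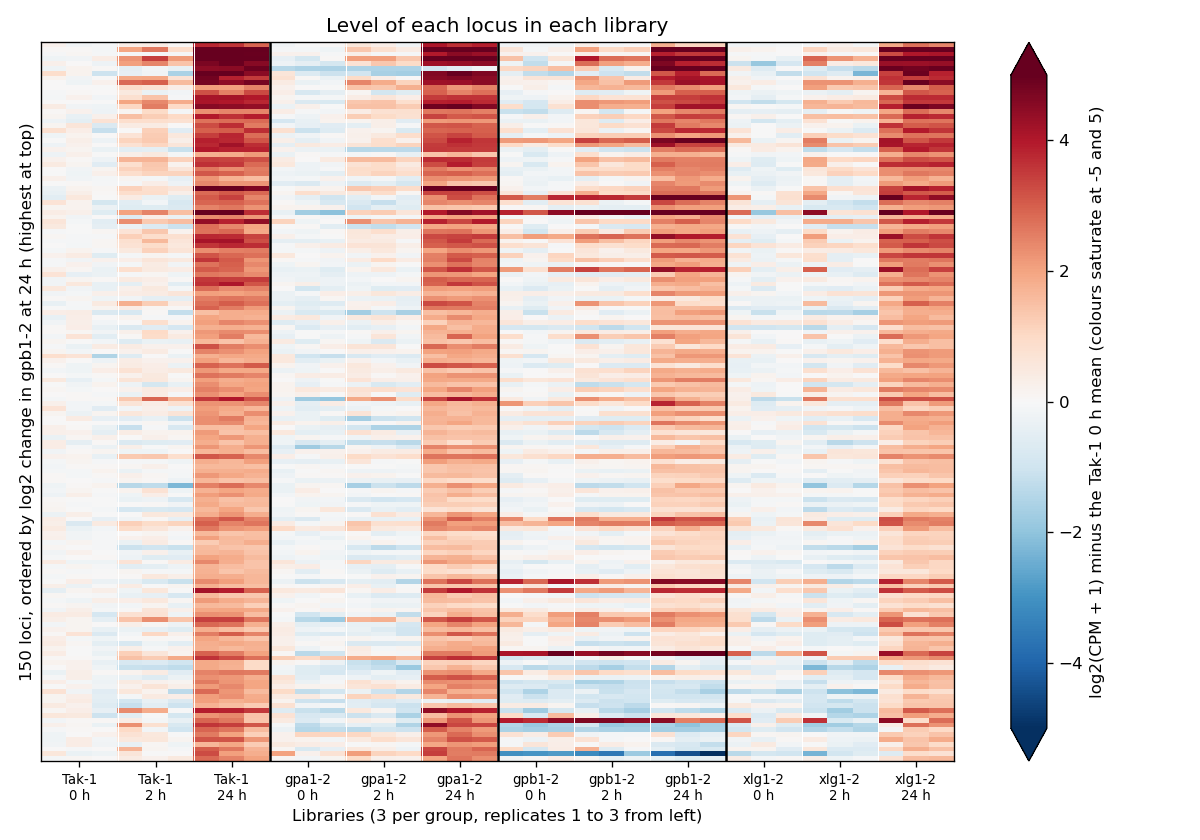
Level of each of the 150 loci (lines, ordered by their log2 change in gpb1-2, highest at top) in each of the 36 libraries (columns), as log2(CPM + 1) minus the Tak-1 mean at 0 h, with colours that saturate at differences of -5 and 5. Most loci are red at 24 h in every genotype, while the 32 loci not called higher in gpb1-2 lie mostly towards the bottom and are pale, blue or already red at 0 h in gpb1-2.

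By the calls over 0 h, 117 of the 150 loci were called higher in all 3 mutants, 27 in gpa1-2 and xlg1-2, 4 in gpa1-2 alone, 1 in gpb1-2 and xlg1-2 and 1 in xlg1-2 alone. Of all loci tested, 17.5% were called higher in all 3 mutants and 3.26% in gpa1-2 and xlg1-2 and not in gpb1-2. Where a rise over both 0 h and 2 h was asked for, 104 members were called in all 3 mutants and 40 in gpa1-2 and xlg1-2, beside 8.93% and 2.94% of all loci. The 32 loci not called higher in gpb1-2 over 0 h had median log2 changes of 2.36 in gpa1-2, -0.28 in gpb1-2 and 1.47 in xlg1-2. For the other 118 the medians were 2.30, 1.84 and 2.21, and the low gpb1-2 value of the 32 follows from how they were picked. A call in one mutant and none in another does not show that they differ, so the difference of the 24 h responses was tested directly between mutants.

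The response, 24 h against 0 h, was larger in gpa1-2 than in gpb1-2 for 29 of the 150 loci by edgeR's test of the difference (adjusted p under 0.05), and the other 121 were not called. Responses were compared with their sign, so a locus that fell less counts as having the larger response. Of all loci tested, 1.48% had a larger and 0.0971% a smaller response in gpa1-2. The difference was above 0 for 128 of the 150, with a median of 0.62, against a median of -0.01 over all loci. Without replicate 3 of gpb1-2 at 0 h the count was 19. Among the 29 loci the median log2 change was 3.05 in gpa1-2, 1.98 in xlg1-2 and 0.40 in gpb1-2. These medians are a description, because the 29 were picked by the gap between gpa1-2 and gpb1-2. In gpb1-2 itself, 10 of the 29 were called higher at 24 h, 5 lower and 14 were not called.

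**Figure D3:**
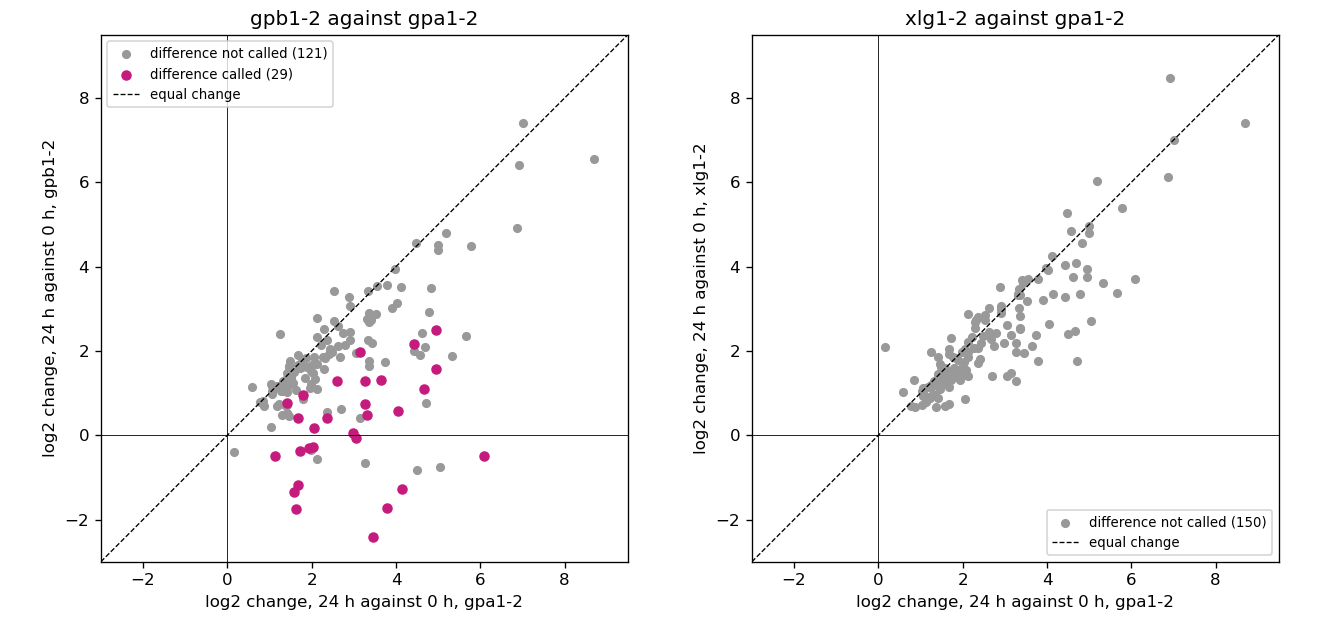
Log2 change from 0 h to 24 h of each of the 150 loci in gpa1-2 (horizontal axis) against gpb1-2 (left) and xlg1-2 (right); the dashed line marks equal change. The 29 loci whose change differed between gpa1-2 and gpb1-2 by edgeR's test are in magenta below the line, and none of the 150 differed by that test between gpa1-2 and xlg1-2.

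Mapoly0037s0117 showed the difference between gpa1-2 and gpb1-2 with the smallest p. It had 8.66, 3.05 and 4.43 CPM at 0 h and 46.6, 52.8 and 45.0 CPM at 24 h in gpa1-2. In gpb1-2 it had 4.79, 5.35 and 6.93 CPM at 0 h and 5.58, 6.30 and 5.99 CPM at 24 h. The libraries of the 2 times overlapped in gpb1-2 and were far apart in gpa1-2, and the responses differed by 3.11 ± 0.361 on the log2 scale (SE; edgeR adjusted p = 3.63e-06). At 24 h it had 27.7, 25.3 and 19.8 CPM in Tak-1 and 10.3, 20.2 and 17.4 CPM in xlg1-2, so all gpa1-2 libraries lay above all others. For Mapoly0116s0046 the responses differed by 2.94 ± 0.357 (SE; edgeR adjusted p = 7.93e-06), since it rose in gpa1-2 and fell in gpb1-2.

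Similar sets ranked on the same Tak-1 libraries are given for comparison, as a description. The first held the 150 loci highest at 2 h, of which 149 were tested, and the other the 150 lowest at 24 h, and neither shared a locus with the set described here. With its sign kept, the 24 h change was called higher in gpa1-2 than in gpb1-2 for 7 of the 149 (4.7%) and for 7 of the 150 (4.67%). In the set described here it was so for 29 of the 150 (19.3%). All 150 loci of the falling set had a change below 0 in both mutants, so their 7 calls were smaller falls in gpa1-2. The medians of the difference in change were 0.36 and 0.06, against 0.62. In gpb1-2 at 24 h against 0 h, 148 of the 150 loci of the falling set were called lower, beside 22.9% of all loci tested. Whether these shares differ beyond chance was not tested.

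Levels at 24 h were also compared between mutants, which asks about the amount reached and not about the change. At 24 h, 52 of the 150 loci were higher in gpa1-2 than in gpb1-2 and 10 were lower, with a median log2 difference of 0.41, beside 5.83% higher and 4.65% lower of all loci. Of the 29 loci whose response differed, 23 were among the 52. Both comparisons use the same 24 h libraries, so part of this overlap is built in. By group mean, gpb1-2 was the lowest of the 3 mutants at 24 h for 97 of the 150 loci (64.7%), and gpa1-2 was the highest for 85 (56.7%), beside 34% and 34.5% of all loci tested. The xlg1-2 mean lay below gpa1-2 and above gpb1-2 for 77 loci (51.3%), beside 21.2% of all, and in the reverse order for 25 (16.7%), beside 24.7% of all. The summed level without its 2 most abundant loci, which are described next, was 22543 CPM in Tak-1, 18938 CPM in gpa1-2, 15529 CPM in gpb1-2 and 17260 CPM in xlg1-2 at 24 h. The order of the 3 mutants was the same as with them. The place of Tak-1 is not read, because its 24 h values chose the loci.

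The 2 most abundant loci, Mapoly0008s0264 and Mapoly0008s0265, were not called changed between 0 h and 24 h in gpb1-2. Mapoly0008s0264 had 307, 297 and 225 CPM at 0 h and 260.3, 275 and 206 CPM at 24 h in gpb1-2. At 24 h it had 2074, 2526 and 1900.4 CPM in Tak-1, 1864, 2740.3 and 2468 CPM in gpa1-2 and 936, 1738 and 1359.5 CPM in xlg1-2. Every gpb1-2 library at 24 h lay below all others of that time, and the level was higher in gpa1-2 by 3.27 ± 0.234 on the log2 scale (SE; edgeR adjusted p = 1.5e-11). Mapoly0008s0265 had 282, 338 and 303 CPM at 24 h in gpb1-2, 3261, 3089 and 2913 CPM in gpa1-2 and 3881, 2932 and 2474 CPM in Tak-1. Together the pair made up 22.3% of the summed level of the 150 loci in gpa1-2 at 24 h, 14.5% in xlg1-2 and 3.45% in gpb1-2.

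Some loci differed between mutants before salt. Levels at 0 h were compared after the responses had been seen. Of the 150 loci, 6 were higher in gpa1-2 at 0 h and 19 were higher in gpb1-2, beside 2.03% and 3.61% of all loci. Among the 29 loci with a different response, 5 were higher in gpa1-2 at 0 h, 6 were lower and 18 were not called, so a different starting level was called for 11 of them. The response and the 0 h level share the 0 h libraries, so these calls are not independent.

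Between gpa1-2 and xlg1-2 at 0 h, 2 of the 150 loci were higher in gpa1-2 and 3 lower, beside 1.1% and 1.13% of all loci. The count of 5 was 3 without gpa1-2 replicate 2 at 0 h, 2 without xlg1-2 replicate 1 or replicate 3 at 0 h and 3 without the 3 libraries of xlg1-2 replicate 1. Over all loci, 229 were called, and 179 without those 3 libraries. Between gpb1-2 and xlg1-2, 5 loci were higher in gpb1-2 and 1 lower, beside 0.758% and 0.282% of all. This count of 6 was 0 without xlg1-2 replicate 2 or replicate 3 at 0 h, 2 without gpb1-2 replicate 1 or replicate 3 at 0 h and 10 without xlg1-2 replicate 1 at 0 h. It was 3 when Tak-1 replicate 1 or 3 at 2 h, or replicate 1 or 2 at 24 h, was left out. Without a Tak-1 library the loci were also ranked again, so both the set and the shared fit changed. Without the 3 libraries of xlg1-2 replicate 1 this count was 19, of which 17 were higher in gpb1-2, and with the replicate number as a block it was 13. Calls over all loci rose as well, from 107 to 235 and to 189. The smallest p belonged to Mapoly0084s0066, higher in gpb1-2 by 1.76 ± 0.34 on the log2 scale (SE; edgeR adjusted p = 0.00657), a call that was lost without xlg1-2 replicate 2 (edgeR adjusted p = 0.0933) or replicate 3 (edgeR adjusted p = 0.0817) at 0 h. It was higher by 2.10 without those 3 libraries.

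Mapoly0006s0125 and Mapoly0026s0146 were the loci lower in gpb1-2 at 0 h with the smallest p. Mapoly0006s0125 had 453, 128 and 184 CPM at 0 h and 1221, 659.9 and 687 CPM at 24 h in gpa1-2, and 12.5, 13.5 and 14.7 CPM and 7.18, 4.41 and 2.31 CPM in gpb1-2. The 0 h levels differed by 4.23 ± 0.574 on the log2 scale (SE; edgeR adjusted p = 8.58e-06). Mapoly0026s0146 had 1.47, 1.85 and 2.16 CPM at 0 h and 3.21, 2.31 and 2.52 CPM at 24 h in gpb1-2, against 10.1, 8.34 and 10.9 CPM and 49.3, 59.6 and 55.1 CPM in gpa1-2. Its 24 h level was higher in gpa1-2 by 4.37 ± 0.318 (SE; edgeR adjusted p = 1.99e-11). Both loci were therefore lower in gpb1-2 than in gpa1-2 at both times. At 0 h both were also higher in gpa1-2 than in xlg1-2, Mapoly0006s0125 by 2.22 ± 0.515 (SE; edgeR adjusted p = 0.0129) and Mapoly0026s0146 by 1.89 ± 0.317 (SE; edgeR adjusted p = 0.000294), and without the 3 libraries of xlg1-2 replicate 1 by 2.06 and 1.63. The first of these calls was lost without gpa1-2 replicate 1 (edgeR adjusted p = 0.156), xlg1-2 replicate 1 (edgeR adjusted p = 0.101) or xlg1-2 replicate 3 at 0 h (edgeR adjusted p = 0.0671). For gpb1-2 minus xlg1-2 at 0 h the log2 differences were -2.02 (edgeR adjusted p = 0.0634) and -0.52 (edgeR adjusted p = 0.861), and neither was called.

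In the opposite direction, Mapoly0041s0051 was already high in gpb1-2 at 0 h, with 215, 225 and 473 CPM, against 12.2, 4.07 and 5.39 CPM in gpa1-2 and 15.7, 11.6 and 9.08 CPM in Tak-1. The log2 difference at 0 h, gpa1-2 minus gpb1-2, was -5.38 ± 0.784 (SE; edgeR adjusted p = 2.61e-05). In xlg1-2 it had 102, 4.21 and 43.3 CPM at 0 h, and the high value belonged to replicate 1, which was nearest to gpb1-2 over all loci. At 24 h it had 354, 448 and 502 CPM in gpb1-2 and 76.5, 76.1 and 55.9 CPM in gpa1-2.

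**Figure D4:**
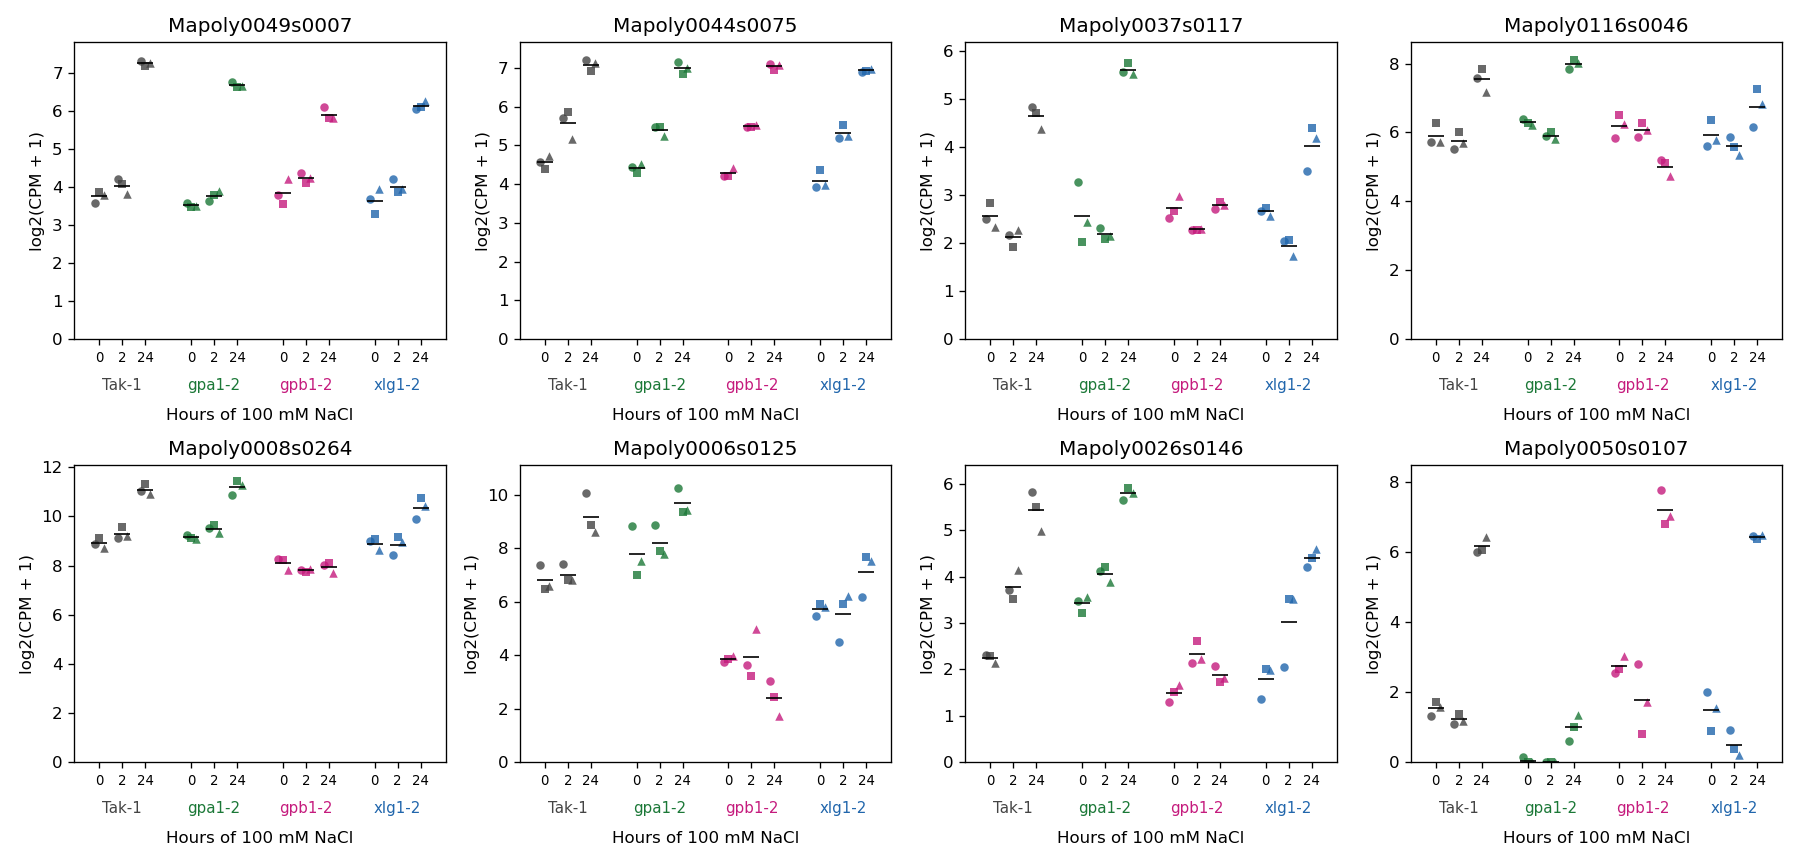
Level of 8 loci as log2(CPM + 1) in each library, by genotype and by hours of 100 mM NaCl, with circles, squares and triangles for replicates 1, 2 and 3 and bars for means. Mapoly0044s0075 reached 114 to 146 CPM at 24 h in every genotype, Mapoly0037s0117, Mapoly0116s0046, Mapoly0008s0264, Mapoly0006s0125 and Mapoly0026s0146 were lowest in gpb1-2 at 24 h, and Mapoly0050s0107 was near 0 in gpa1-2.

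The locus with the strongest deficit in gpa1-2 was Mapoly0050s0107. It had 1, 0 and 0 counts at 0 h, 0, 0 and 0 counts at 2 h and 5, 11 and 16 counts at 24 h in gpa1-2. At 24 h it had 0.532, 1.02 and 1.56 CPM in gpa1-2, 63.1, 65.5 and 86.2 CPM in Tak-1, 216, 110.1 and 130.4 CPM in gpb1-2 and 87.9, 81.6 and 88.6 CPM in xlg1-2. All gpa1-2 libraries lay far below every other library of that time. The log2 difference of the 24 h level was -7.14 ± 0.453 for gpa1-2 minus gpb1-2 (SE; edgeR adjusted p = 4.32e-12) and -6.33 ± 0.448 for gpa1-2 minus xlg1-2 (SE; edgeR adjusted p = 4.81e-11), and the latter was again -6.33 without the 3 libraries of xlg1-2 replicate 1. Among loci lower in gpa1-2 than in gpb1-2 at 24 h, the next smallest p belonged to Mapoly0009s0081, with a log2 difference of -2.96 ± 0.589 (SE; edgeR adjusted p = 0.00073).

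The 24 h response of xlg1-2 did not pass the test of the difference from gpa1-2 for any of the 150 loci with edgeR, beside 0.0583% of all loci larger and 0% smaller in gpa1-2. At an unadjusted p under 0.05, 23 of the 150 were past the threshold, and DESeq2 called 3. The median difference was 0.24, and 0.10 without the 3 libraries of xlg1-2 replicate 1, when again 0 loci were called. Removing gpa1-2 replicate 1 at 0 h gave 2 calls, and removing xlg1-2 replicate 2 at 24 h gave 1. This does not show that the mutants respond alike.

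At 24 h, 20 of the 150 loci were higher in gpa1-2 than in xlg1-2 and 3 were lower, with a median log2 difference of 0.14, beside 1.95% higher and 1.41% lower of all loci. The median was 0.05 without xlg1-2 replicate 1 at 24 h, 0.25 without xlg1-2 replicate 2 at 24 h and 0.04 without the 3 libraries of xlg1-2 replicate 1. The count of 23 fell to 15 without gpa1-2 replicate 2 at 24 h, to 9 without xlg1-2 replicate 1 at 24 h and to 14 without xlg1-2 replicate 3 at 24 h. Without the 3 libraries of xlg1-2 replicate 1 it was 11, of which 7 were higher and 4 lower. Over all loci, 252 were then called, beside 201 higher and 145 lower with all libraries. Mapoly0037s0117 was higher in gpa1-2 by 1.60 ± 0.236 on the log2 scale (SE; edgeR adjusted p = 3.72e-05), and by 1.35 without those 3 libraries. Mapoly0022s0142 was higher by 1.20 ± 0.206 (SE; edgeR adjusted p = 0.000333), with 235, 257 and 247 CPM in gpa1-2 and 77.5, 136 and 109 CPM in xlg1-2, and by 1.00 without the same 3 libraries.

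Between gpb1-2 and xlg1-2, 7 of the 150 loci had a different 24 h response, each smaller in gpb1-2, with a median difference of -0.45 over the 150. Of all loci, 0% had a larger and 0.194% a smaller response in gpb1-2. All 7 were also among the 29 of the previous comparison, which used the same gpb1-2 libraries. The count depended on single libraries. It was 0 without gpb1-2 replicate 3 at 24 h, xlg1-2 replicate 3 at 0 h, xlg1-2 replicate 2 at 24 h or xlg1-2 replicate 3 at 24 h. It was 3 without gpb1-2 replicate 1 at 0 h, replicate 2 at 0 h or replicate 2 at 24 h, 2 without gpb1-2 replicate 3 at 0 h or xlg1-2 replicate 1 at 0 h, 4 without xlg1-2 replicate 2 at 0 h and 11 without xlg1-2 replicate 1 at 24 h. Without the 3 libraries of xlg1-2 replicate 1 it was 18, again each smaller in gpb1-2, and the median difference was -0.69. Over all loci, 71 were then called, beside 20 with all libraries. With the replicate number as a block the count among the 150 was 13, each smaller in gpb1-2.

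Mapoly0116s0046 had a smaller response in gpb1-2 than in xlg1-2, with a log2 difference of -2.05 ± 0.355 (SE; edgeR adjusted p = 0.0153), and so had Mapoly0064s0003, with -4.36 ± 0.776 (SE; edgeR adjusted p = 0.0156). Both calls were lost, at adjusted p between 0.0556 and 0.0801, without gpb1-2 replicate 3 at 24 h, xlg1-2 replicate 3 at 0 h, or xlg1-2 replicate 2 or 3 at 24 h. The call of Mapoly0064s0003 was also lost without gpb1-2 replicate 3 at 0 h (edgeR adjusted p = 0.118). Without the 3 libraries of xlg1-2 replicate 1 the differences were -2.13 and -4.94. At 24 h, 26 of the 150 loci had a lower level in gpb1-2 than in xlg1-2, beside 0.738% of all loci higher and 1.52% lower in gpb1-2, and the other 124 were not called. The count was 16 without xlg1-2 replicate 2 at 24 h, and 43 without the 3 libraries of xlg1-2 replicate 1, of which 6 were higher and 37 lower in gpb1-2. Over all loci, 385 were called without those 3 libraries, beside 76 higher and 156 lower with them. The median log2 difference of the 150 was -0.25, and -0.37 without those libraries. Mapoly0008s0264 was lower in gpb1-2, with a log2 difference of -2.46 ± 0.227 (SE; edgeR adjusted p = 3.76e-08). Mapoly0007s0126 was lower with a log2 difference of -2.54 ± 0.263 (SE; edgeR adjusted p = 2.64e-07), with 4.06, 3.99 and 4.36 CPM in gpb1-2 and 16.3, 31.4 and 23.9 CPM in xlg1-2. Without the same 3 libraries the differences were -2.68 and -2.76.

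Within xlg1-2 at 24 h, replicate 1 was the lowest of the 3 libraries for 107 of the 150 loci (71.3%) and the highest for 32, beside 32.4% and 37.2% of all loci tested. It was the lowest for 21 of the 29 loci whose response was larger in gpa1-2 than in gpb1-2. For Mapoly0006s0125 the xlg1-2 libraries had 70.7, 205 and 184 CPM at 24 h, and the gpb1-2 libraries 7.18, 4.41 and 2.31 CPM. The part of these libraries in the xlg1-2 levels was not tested beyond leaving them out.

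At 2 h loci were called in both directions. In gpa1-2, 21 were called higher and 20 lower than at 0 h, with a median log2 change of 0.08, beside 12.1% higher and 10.3% lower of all loci. In gpb1-2, 33 were called higher and 19 lower, with a median of 0.10, beside 15.2% and 14.1%. In xlg1-2, 26 were called higher and 33 lower, with a median of -0.04, beside 16.2% and 14.5%, and 18 and 30 were called without the 3 libraries of xlg1-2 replicate 1, with a median of -0.20. Over all loci, 2214 were then called in either direction. Loci called higher at 2 h in all 3 mutants numbered 16, or 10.7% of the set, beside 9.24% of all loci tested. Loci called lower in all 3 numbered 13 (8.67%), beside 7.67% of all, and 76 (50.7%) were called in no mutant, beside 60.7% of all.

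The loci that had begun to rise by 2 h included Mapoly0067s0104, higher by 1.45 ± 0.177 in gpa1-2 (SE; edgeR adjusted p = 3.91e-07) and by 1.67 ± 0.167 in gpb1-2 (SE; edgeR adjusted p = 6.45e-09). Mapoly0070s0072 had 23.7, 19.2 and 45.4 CPM at 0 h, 179.7, 163 and 155 CPM at 2 h and 331, 358 and 418 CPM at 24 h in gpb1-2, and rose by 2.40 ± 0.253 at 2 h (SE; edgeR adjusted p = 1.58e-08). It rose in steps and had no overlap between times there. In xlg1-2 it rose by 2.59 ± 0.26 at 2 h (SE; edgeR adjusted p = 8.42e-09), and by 2.45 without the 3 libraries of xlg1-2 replicate 1.

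Other loci were lower at 2 h than at 0 h. Mapoly0048s0022 had 21.8, 24.5 and 22.9 CPM at 0 h, 13.0, 8.90 and 10.9 CPM at 2 h and 71.3, 72.0 and 59.6 CPM at 24 h in gpa1-2, and fell by 1.13 ± 0.148 on the log2 scale at 2 h (SE; edgeR adjusted p = 1.16e-06). In xlg1-2 it fell by 1.35 ± 0.149 (SE; edgeR adjusted p = 3.88e-08), and by 1.55 without the 3 libraries of xlg1-2 replicate 1. In gpb1-2 the falls at 2 h with the smallest p were those of Mapoly0055s0015, with a log2 change of -1.57 ± 0.218 (SE; edgeR adjusted p = 1.85e-06), and Mapoly0061s0025, with -1.65 ± 0.246 (SE; edgeR adjusted p = 5.88e-06). At 24 h over 0 h in gpb1-2 neither was called, with log2 changes of 0.46 (edgeR adjusted p = 0.0638) and -0.50 (edgeR adjusted p = 0.0826).

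The identifiers give each locus a scaffold and an order along it. The 150 loci lay on 92 scaffolds, with at most 5 on one, and 7 pairs had consecutive numbers. Both loci were not called higher in gpb1-2 in 3 of the 7 pairs, 1 of the 2 in another pair, and both were called higher in the other 3. In the whole set, 32 of the 150 loci were not called higher in gpb1-2. Consecutive loci of the whole table were not counted in this way, so nothing is read from these pairs. The most abundant pair, Mapoly0008s0264 and Mapoly0008s0265, had log2 changes of -0.29 and -0.28 in gpb1-2 and of 1.94 and 2.04 in gpa1-2. In the pair Mapoly0064s0003 and Mapoly0064s0004 the changes were -2.41 and -1.27 in gpb1-2 and 3.46 and 4.15 in gpa1-2. Whether the loci of a pair are related copies that share reads was not tested, and both loci of each pair are counted in every count given here.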

How the data were processed

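The authors deposited whole-number counts per locus, which the labels call raw read counts. The submitters' processing notes name STAR, without a version. A Marchantia build and a counting tool are not given there. The table had 19755 lines, and 3012 identifiers on 2 lines, holding 1.1% of counts, were summed to 16743 loci. Totals ran from 7.476 to 21.27 M counts per library. Replicate libraries were distinct: chi-square per degree of freedom between replicates was at least 7.084. Samples were grouped by the labels.

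All 36 libraries were fitted with edgeR 4.0.16 in R 4.3.3, with filterByExpr (minimum count 10, minimum total 15), TMM scaling, 1 mean per group and quasi-likelihood F-tests. Benjamini-Hochberg adjustment of p-values ran over the 10296 loci tested in each comparison, and an adjusted p under 0.05 was a call. All 150 members passed the filter, 4 of them stood on 2 lines, and each SE was derived from the F statistic. CPM are counts scaled to the library total. The submitters' design text gives biological replicates but not separate cultures, so p-values cover spread that may be technical and that was seen between these libraries.

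The members and lists were chosen with earlier results of these data known. Tak-1 values chose the members, so comparisons with Tak-1 are described and not tested. Loci were named by rule: the 2 highest scores, the 2 highest Tak-1 levels at 24 h, the 2 loci on the inside of the rank limit, and in each tested comparison up to 2 called higher and 2 called lower with the smallest p. Mapoly0050s0125, Mapoly0007s0184 and the loci of the consecutive pairs were named after their values were seen. The procedure was run on simulated counts with the same dispersion for every locus and no shared deviation between libraries. It therefore cannot speak for calls that depend on single libraries. Replicate numbers were judged to pair libraries where every same-numbered pair among the groups compared deviated together with r over 0.1. That held within gpa1-2 and within xlg1-2, for 24 h against 0 h in gpb1-2, and for gpb1-2 against xlg1-2 at 0 h and at 24 h (lowest r 0.117), and the pairing comes from these data, not from the labels. The main fit had no term for the replicate number, so its SEs, p-values and counts leave this pairing out. Alternatives were DESeq2 1.42.0, DESeq2 size factors, no filter, a replicate block, only the groups compared, loci on 2 lines left out, other choices of members and each library left out. Planned comparisons in a second Marchantia table, of WRKY mutants, were not run, because its identifiers could not be matched to those of the members.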

Additional observations from a re-analysis of the deposited data

Results flagged for a closer look

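The results here were marked because the 24 h response was tested to differ between 2 mutants. Between gpa1-2 and gpb1-2 it differed for 29 of the 150 loci, each with the larger response in gpa1-2 (edgeR, adjusted over all loci). The 2 with the smallest p were Mapoly0037s0117, with a log2 difference of 3.11, and Mapoly0116s0046, with 2.94. Between gpb1-2 and xlg1-2 it differed for 7, each smaller in gpb1-2. The 2 with the smallest p were Mapoly0116s0046, with a log2 difference of -2.05, and Mapoly0064s0003, with -4.36. These 7 calls were lost when single libraries were left out, and both comparisons use the same gpb1-2 libraries.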

How the results depend on the processing

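Of the 385 counts computed for the 15 planned comparisons, their alternatives included, 345 stayed within 1.5 times the reported count and 25 did not. DESeq2 called 3 loci for the difference in response between gpa1-2 and xlg1-2 and 15 for that between gpb1-2 and xlg1-2. With only the groups compared, the latter was 0. Without the 3 libraries of xlg1-2 replicate 1, it was 18, and the counts of 24 h levels were 11 for gpa1-2 against xlg1-2 and 43 for gpb1-2 against xlg1-2. Calls over all loci were then 71, 252 and 385 in the same order.

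Leaving out 1 library at a time gave these ranges. At 24 h over 0 h, 146 to 149 loci were higher in gpa1-2, 112 to 122 in gpb1-2 and 139 to 147 in xlg1-2. At 24 h over 2 h, they were 147 to 149, 108 to 113 and 140 to 149. At 2 h, 33 to 42, 40 to 56 and 46 to 60 loci were called. Differences in response were called for 19 to 32 loci between gpa1-2 and gpb1-2, 0 to 2 between gpa1-2 and xlg1-2 and 0 to 11 between gpb1-2 and xlg1-2. Differences in 24 h level were called for 48 to 69, 9 to 26 and 16 to 32 in the same order.

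The labels give groups the same replicate numbers. For the response of gpb1-2 against xlg1-2, the 12 same-numbered pairs that share a mutant or a time had r from 0.117 to 0.533, and the lowest over all 18 pairs was -0.0431. The numbers did not pair gpa1-2 with gpb1-2 or xlg1-2, nor 2 h with the other times in gpb1-2. As a hint from the data and not the design, 26 of 27 libraries correlated best with their own number. With a replicate block, 13 loci had a different response between gpb1-2 and xlg1-2 and 38 between gpa1-2 and gpb1-2. The block also raised the 0 h count of gpb1-2 against xlg1-2 to 13. Apart from the response and 0 h counts of gpb1-2 against xlg1-2, it moved no count by over 1.5 times. Among the other 0 h counts, DESeq2 gave 9 for gpa1-2 against xlg1-2, only the groups compared gave 2 there and 2 for gpb1-2 against xlg1-2, and DESeq2 size factors gave 3 for the latter.

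Of 1264 values of named loci under alternatives, 1222 kept their direction and their call, 42 lost the call and 0 reversed. Choosing members on TMM-scaled CPM kept 149 of the 150, a minimum of 10 CPM kept 135, and leaving out 1 Tak-1 library kept 136 to 146. With plain CPM the median of all loci at 24 h over 0 h lay at 0.14 in gpa1-2, 0.16 in gpb1-2 and 0.22 in xlg1-2 on the log2 scale, and near 0 after TMM scaling. Loci of a few CPM were limited by depth.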
